A study of Homo sapiens with 12 samples.

Results

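The kinesin genes were taken as the protein-coding genes whose symbol is KIF or KIFC followed by a digit, which gave 43 of the 58735 genes of the count table. They were grouped by textbook role into 14 mitotic kinesins, 15 transport kinesins and 14 other members, the last with ciliary, signalling, atypical or mixed roles. Of these, 12 mitotic, 15 transport and 11 other members passed the filter on low counts, 38 in all. The 5 that did not were KIF2B, with 0 counts in all 12 libraries, KIF4B, KIF6, KIF19 and KIF25. The rule also takes in KIF1BP, a kinesin-binding protein that is not itself a motor, and leaves out CENPE, a mitotic kinesin with another kind of name, which is given below with the partners of the mitotic class.

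Poly(A) RNA was sequenced from A549, a human non-small cell lung cancer line. The cells stably carried a control short hairpin RNA (shControl, genotype label WT) or a hairpin against TRIM22 (shTRIM22), a tripartite motif protein that attaches ubiquitin to other proteins. Each population was sham-irradiated or collected 3 days after ionizing radiation, and each of the 4 groups holds 3 libraries that the labels call biological replicates. Neither the radiation dose nor the time at which sham cells were harvested is stated in the labels, which do not say whether libraries came from separate cultures, and describe 1 stable population per hairpin. Differences between the populations may therefore belong to the hairpin or to the population, which cannot be told apart. Sham and irradiated cells may also differ in time of harvest, which cannot be told apart from irradiation. The p-values measure only the spread between these libraries.

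Kinesins are motor proteins that use ATP to move along microtubules or to take their ends apart. Mitotic kinesins build the spindle, align and separate chromosomes and complete cell division, and many of their genes are transcribed mainly in late S, G2 and M phase. Transport kinesins carry vesicles, organelles and mRNA through the cell at every stage of its cycle, and they include the heavy chains of conventional kinesin and the motors of cilia.

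Library totals ran from 14468386 to 17872154 counts. TRIM22 was present at 2.83, 1.76 and 2.25 CPM (read counts per library size after TMM scaling) in the shControl sham libraries and at 0.326, 0.304 and 0.293 in the shTRIM22 sham libraries. After irradiation it reached 18.5, 17.8 and 16.6 CPM in shControl cells and 2.47, 2.17 and 1.35 in shTRIM22 cells, so that the irradiated knockdown cells held about the TRIM22 level of the untreated control cells. Of the epithelial markers, KRT8, KRT18 and CDH1 were abundant, with means of 3650, 2390 and 155 CPM, whereas KRT19 had 0.6. The summed level of 4 lung alveolar markers was 0.217 to 0.845 CPM, of 4 fibroblast markers 4.13 to 9.73 and of 3 endothelial markers 3.84 to 12.0. CD3E, a marker of T cells, was at 0 in every library. One library stood apart: shTRIM22 sham replicate 3 had 2.67% of its counts in mitochondrially encoded genes, against 9.12% to 14.4% in the others. For several members, but not all, the values without it are given below.

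Irradiation lowered the mRNA of the mitotic kinesins in both populations. Summed over the class and divided by gene length, the mitotic level was 53.1, 52.3 and 41.9 CPM per kb in the shControl sham libraries and 28.1, 28.3 and 20.5 in the irradiated ones. In shTRIM22 cells it was 53.9, 52.7 and 61.9 CPM per kb without irradiation, the last in the library that stood apart, and 22.2, 24.5 and 26.6 after it. Every irradiated library lay below every sham library. The transport class, summed in the same way, was 179, 173 and 176 CPM per kb in shControl sham and 171, 172 and 169 in shControl irradiated libraries. It was 178, 173 and 204 CPM per kb in shTRIM22 sham and 171, 168 and 173 in shTRIM22 irradiated libraries, the highest value being that of the library that stood apart. Mitotic kinesins thus made up 18.9% ± 1.98 (SD, n = 3) of the summed level of all members in shControl sham, 11.1% ± 1.61 in shControl irradiated, 20.2% ± 0.19 in shTRIM22 sham and 10.7% ± 0.838 in shTRIM22 irradiated cells. In RNA from whole cultures, fewer cells of a type (here, cells in division) and less RNA per cell cannot be told apart.

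**Figure D1:**
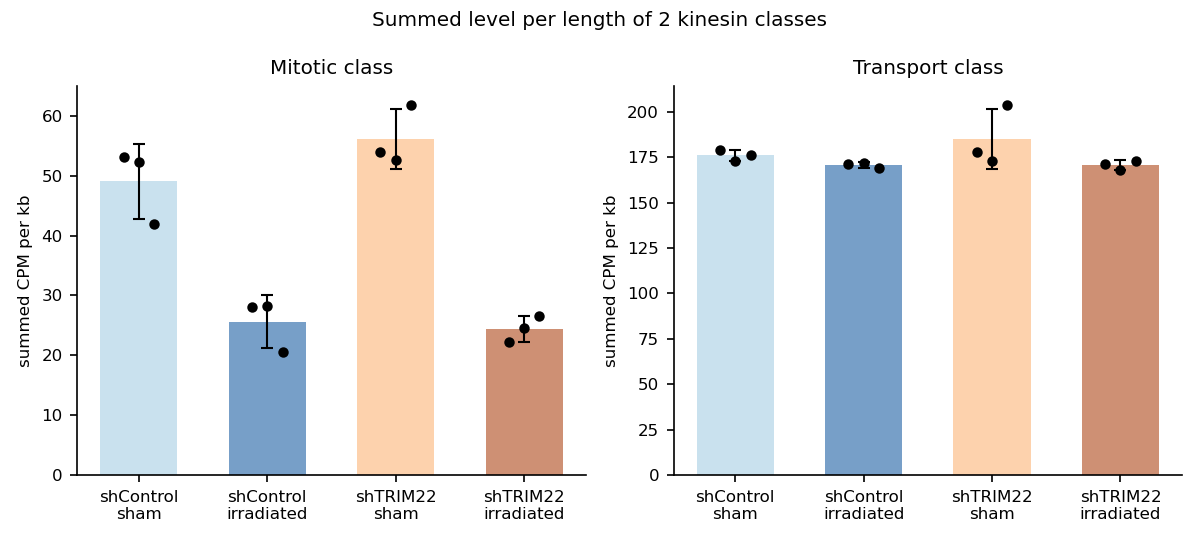
Summed level of the mitotic (left) and transport (right) kinesins in CPM per kb of gene length, by group; points are libraries, bars means and error bars SD over 3 libraries, and the axes differ in range. The mitotic mean is 49.1 and 25.6 CPM per kb in shControl and 56.2 and 24.4 in shTRIM22 cells, sham and irradiated, while the transport means lie between 171 and 185.

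Each gene was tested with edgeR's quasi-likelihood F-test in 1 fit over all 12 libraries, and called at a Benjamini-Hochberg adjusted p below 0.05 over the 17094 genes tested. In shControl cells, 11 of the 12 mitotic kinesins tested fell after irradiation and 0 rose (0 also at an unadjusted p below 0.05 and by DESeq2), whereas 18.2% of all genes tested were called, 7.53% as lower. The median log2 fold change of the 12 was -1.10, with all 12 negative, beside 0.01 over all genes. In shTRIM22 cells 12 of 12 fell, against 27.5% of all genes called and 14% as lower, with a median of -1.30 beside 0.00 over all genes. The sham and irradiated libraries did not overlap for 11 of the 12 in shControl and 12 of the 12 in shTRIM22 cells, where 41.4% and 39.5% of all genes did not. The count in shControl cells ran from 9 to 12 as each library was left out, with 9 reached without shControl sham replicate 1 or 2 or without shControl irradiated replicate 3. In shTRIM22 cells it stayed at 12, the value without shTRIM22 sham replicate 3 included.

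**Figure D2:**
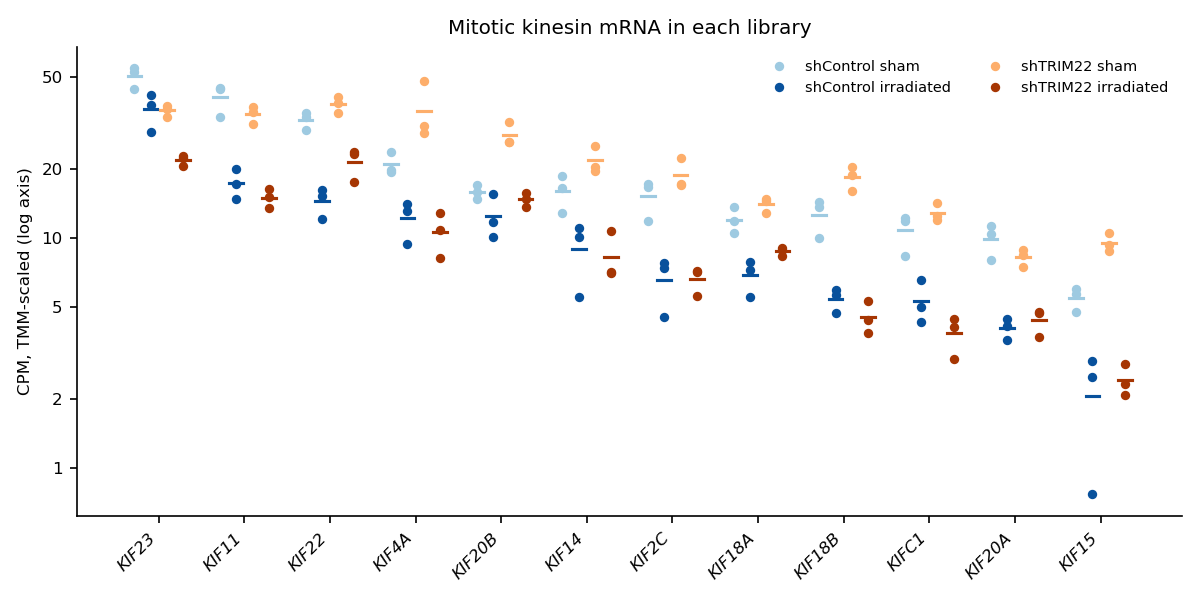
CPM of the 12 tested mitotic kinesins in each library, on a log axis; points are libraries, horizontal marks are group means and colours are the 4 groups. For 11 of the 12 genes the irradiated points of both populations lie below the sham points of the same population; for KIF20B those of shControl overlap.

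KIF11 (ENSG00000138160, chr10:92593286-92655395 on hg38, plus strand), the plus-end motor that pushes spindle poles apart, had 44.4, 44.9 and 33.5 CPM in shControl sham and 17.1, 20 and 14.8 in shControl irradiated libraries. The shTRIM22 libraries had 36.9, 31.2 and 35.1 CPM without irradiation and 16.3, 13.5 and 15.1 after it. All 6 irradiated values lay below all 6 sham values. Its log2 fold change was -1.25 ± 0.13 (SE; adjusted p = 5.44e-06) in shControl and -1.20 ± 0.13 (adjusted p = 8.69e-06) in shTRIM22 cells, about 2.37-fold and 2.30-fold lower. KIF15, a spindle motor that can stand in for KIF11, averaged 5.51 ± 0.645 CPM (SD, n = 3) in shControl sham, 2.06 ± 1.14 in shControl irradiated, 9.55 ± 0.893 in shTRIM22 sham and 2.41 ± 0.384 in shTRIM22 irradiated cells. It fell in both populations, by 1.44 and 1.98 on the log2 scale (adjusted p = 0.0026 and 8.14e-05 by edgeR).

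KIFC1 (ENSG00000237649, chr6:33391536-33409924), a minus-end motor that gathers microtubules at the spindle poles, had 11.9, 12.2 and 8.38 CPM in shControl sham and 6.58, 5.01 and 4.32 in shControl irradiated libraries. In shTRIM22 cells the values were 12.0, 12.4 and 14.2 without irradiation and 2.99, 4.46 and 4.12 after it. Neither pair of groups overlapped, and the log2 fold changes were -1.03 ± 0.19 (adjusted p = 0.00103) and -1.73 ± 0.19 (adjusted p = 1.01e-05).

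KIF18B (ENSG00000186185, chr17:44924709-44947711, minus strand), which shortens the microtubules that reach from the spindle to the cell cortex, showed the largest fold change among the 38 members after irradiation in shTRIM22 cells. It had 13.6, 14.3 and 10 CPM in shControl sham and 5.66, 5.92 and 4.73 in shControl irradiated libraries, 16, 18.7 and 20.3 in shTRIM22 sham and 4.42, 3.86 and 5.34 in shTRIM22 irradiated libraries. All irradiated libraries were lower than all sham libraries. The log2 fold change was -1.22 ± 0.17 (adjusted p = 8.60e-05) in shControl and -2.01 ± 0.17 (adjusted p = 9.05e-07) in shTRIM22 cells. Its relative KIF18A, which holds chromosomes near the spindle equator, averaged 12.0 ± 1.53 and 6.91 ± 1.21 CPM in shControl and 14.1 ± 1.01 and 8.76 ± 0.399 in shTRIM22 cells, sham and irradiated (SD, n = 3). It fell in both.

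KIF2C, a microtubule depolymerase that corrects faulty attachments at kinetochores, had 16.7, 17.2 and 11.9 CPM in shControl sham and 7.78, 7.42 and 4.55 in shControl irradiated libraries. In the knockdown population it had 17.1, 17.0 and 22.3 before and 5.59, 7.17 and 7.08 after irradiation. The groups were apart in both populations, and it fell by 1.22 ± 0.20 and 1.5 ± 0.19 on the log2 scale (adjusted p = 0.00044 and 4.69e-05 by edgeR).

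Chromokinesins bind chromosome arms. KIF22 (ENSG00000079616, chr16:29790719-29805385), the most abundant mitotic kinesin per length with a mean of 6.19 CPM per kb over all libraries, had 33.5, 34.8 and 29.6 CPM in shControl sham and 16.2, 15.2 and 12.1 in shControl irradiated libraries. In shTRIM22 cells it had 34.8, 38.4 and 41.0 CPM without and 17.5, 23.2 and 23.7 after irradiation. It fell in both, by 1.17 ± 0.13 and 0.82 ± 0.12 on the log2 scale (adjusted p = 9.23e-06 and 0.000153 by edgeR).

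KIF4A (ENSG00000090889, chrX:70290090-70420832), which compacts chromosomes and limits microtubule growth at the midzone, had 23.6, 19.7 and 19.4 CPM in shControl sham and 14.1, 13.1 and 9.40 in shControl irradiated libraries. The shTRIM22 libraries had 30.6, 28.6 and 48.0 CPM in sham and 8.19, 10.8 and 12.9 in irradiated libraries, the value of 48.0 belonging to the library that stood apart. Groups did not overlap, with log2 fold changes of -0.78 ± 0.22 (adjusted p = 0.0255) and -1.74 ± 0.22 (adjusted p = 8.80e-05), the latter -1.47 without shTRIM22 sham replicate 3. The call in shControl cells was lost without shControl sham replicate 1 (adjusted p = 0.0899), sham replicate 2 (0.0518), irradiated replicate 2 (0.0547) or irradiated replicate 3 (0.0994). KIF4B, a near-identical copy of KIF4A, had at most 0.313 CPM in any library, and how reads shared between the copies were counted is not given in the sources used here.

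KIF23 (ENSG00000137807, chr15:69414246-69448427), the motor of the centralspindlin complex in cytokinesis, had 54.6, 52.7 and 44.6 CPM in shControl sham and 38.0, 41.7 and 29 in shControl irradiated libraries, a difference of -0.48 ± 0.11 on the log2 scale (adjusted p = 0.00674). In the knockdown population it had 36.4, 33.7 and 37.4 before and 22.3, 20.5 and 22.6 after irradiation, a difference of -0.72 ± 0.12 (adjusted p = 0.000331). The irradiated libraries were the lower ones in both populations, and the shTRIM22 sham libraries lay at the level of the shControl irradiated ones.

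KIF20A, which carries the Aurora B complex to the midzone, had 10.4, 11.3 and 8.05 CPM in shControl sham and 3.61, 4.43 and 4.14 in shControl irradiated libraries. In shTRIM22 cells it had 7.45, 8.88 and 8.44 without and 3.70, 4.70 and 4.76 after irradiation. No irradiated library reached a sham library, and it fell by 1.28 ± 0.17 and 0.91 ± 0.17 on the log2 scale (adjusted p = 5.20e-05 and 0.000769 by edgeR).

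KIF14, which recruits citron kinase to the midbody, had 18.5, 16.5 and 12.9 CPM in shControl sham and 10.1, 11.1 and 5.56 in shControl irradiated libraries. The shTRIM22 libraries had 20.4, 19.6 and 25.2 before and 7.02, 7.11 and 10.7 after irradiation. The groups were apart in both populations, with log2 fold changes of -0.85 ± 0.23 (adjusted p = 0.0208) and -1.39 ± 0.23 (adjusted p = 0.000569). The latter was -1.28 without shTRIM22 sham replicate 3 (adjusted p = 0.0079 by edgeR). In shControl cells the call was lost without shControl sham replicate 1 (adjusted p = 0.0834), sham replicate 2 (0.0653) or irradiated replicate 3 (0.0642).

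KIF20B (ENSG00000138182, chr10:89701610-89774939), needed for the final cut between daughter cells, was the exception among the 12 in shControl cells. It had 17.0, 15.9 and 14.7 CPM in sham and 15.6, 11.7 and 10.1 in irradiated libraries, which overlap, and its log2 fold change of -0.35 ± 0.14 had an adjusted p of 0.106. This value passed the threshold without shControl irradiated replicate 1 (-0.54, adjusted p = 0.0158) and without shTRIM22 sham replicate 3 (adjusted p = 0.0232). It also passed with no filter on low counts (0.0395) and in a fit of the compared groups only (0.03). In shTRIM22 cells KIF20B had 31.9, 26.2 and 26.0 CPM in sham and 13.6, 14.8 and 15.7 in irradiated libraries, which are apart, and fell by 0.93 ± 0.14 on the log2 scale (adjusted p = 0.000116).

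The promoters of the mitotic kinesins shared letters that the class rule did not use. The cell-cycle genes homology region (CHR), searched on both strands as TTTGAA or TTCGAA, and the CCAAT box, searched on both strands as CCAAT, are known elements of promoters active in G2 and M phase, bound in turn by the DREAM or MuvB complexes and by NF-Y. In RefSeq's GRCh38.p14 promoters (250 bases before to 50 after each start), the CHR letters were found in 10 of 12 tested mitotic members (83.3%), 1 of 11 transport members with an entry (9.09%) and 1 of 8 other members with an entry (12.5%), against 16.4% of all 35116 promoters. CCAAT was found in 10 of the 12 (83.3%), 3 of the 11 (27.3%) and 3 of the 8 (37.5%), against 34.6% of all promoters. Both were present in 9 of the 12 (75%), 1 of the 11, which was KIF5B, and 1 of the 8, against 6.38%. KIF2C held neither, KIF20A only CCAAT and KIF15 only the CHR letters. A match of letters is a description of these windows, not a test of binding. The 150 bases before the RefSeq start are printed for 3 mitotic kinesins of different spindle functions and, for contrast, for the most abundant transport kinesin and for KIF1C, with matches in capitals (CCAAT reads ATTGG and TTTGAA reads TTCAAA on the other strand). In KIF11 and KIF4A the CCAAT box starts 53 and 58 bases and the CHR letters 28 and 34 bases before the start, whereas in KIF5B the CHR letters lie upstream of the CCAAT box. In the mitotic kinesins KIF14, KIF18B, KIF20B and KIFC1 the CHR letters lie after the start, so those of KIF18B fall outside the printed bases.
KIF11 (chr10:92592980-92593129, plus strand): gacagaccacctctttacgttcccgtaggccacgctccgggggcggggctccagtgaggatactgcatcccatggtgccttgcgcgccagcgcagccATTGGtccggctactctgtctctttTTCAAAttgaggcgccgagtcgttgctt
KIF4A (chrX:70289954-70290103, plus strand): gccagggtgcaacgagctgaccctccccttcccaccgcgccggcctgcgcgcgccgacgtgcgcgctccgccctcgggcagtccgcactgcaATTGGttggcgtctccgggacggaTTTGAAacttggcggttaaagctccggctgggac
KIF18B (chr17:44947774-44947923, minus strand): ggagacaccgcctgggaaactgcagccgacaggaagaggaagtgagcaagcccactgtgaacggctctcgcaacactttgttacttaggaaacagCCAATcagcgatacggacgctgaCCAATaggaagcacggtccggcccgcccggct
KIF5B (chr10:32056426-32056575, minus strand): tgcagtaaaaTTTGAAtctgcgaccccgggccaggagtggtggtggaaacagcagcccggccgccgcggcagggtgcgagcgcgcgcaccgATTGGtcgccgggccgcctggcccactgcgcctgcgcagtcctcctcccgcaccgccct
KIF1C (chr17:4997800-4997949, plus strand): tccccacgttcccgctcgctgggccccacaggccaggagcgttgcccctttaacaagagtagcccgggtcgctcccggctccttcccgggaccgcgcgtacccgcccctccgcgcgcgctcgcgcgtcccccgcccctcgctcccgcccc

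Transport kinesins were called in both directions after irradiation. In shControl cells 2 of its 15 members rose and 2 fell, with a median log2 fold change of -0.17, and in shTRIM22 cells 1 rose and 6 fell, with a median of -0.08. The 6 were KIF1A, KIF3A, KIF5B, KIF5C, KIF13A and KIFC3. Over all genes tested, 10.6% and 13.5% were called higher and 7.53% and 14% lower. The sham and irradiated libraries did not overlap for 11 of the 15 in shControl and 10 of the 15 in shTRIM22 cells. Of all genes, 41.4% and 39.5% did not overlap. The log2 fold change was negative for 10 of the 15 in shControl and 8 of the 15 in shTRIM22 cells. As each library was left out, the rises ran from 1 to 2 and the falls from 1 to 4 in shControl cells, and the rises from 1 to 4 and the falls from 5 to 6 in shTRIM22 cells. Without shTRIM22 sham replicate 3, 4 members fell in shControl cells, and in shTRIM22 cells 4 rose and 6 fell, with KIF1C (0.21, adjusted p = 0.00232), KIF3B (0.18, adjusted p = 0.0235) and KIF13B (0.17, adjusted p = 0.0443) added to the rises. In shControl cells rises dropped to 1 without any 1 of the 3 sham libraries or irradiated replicate 2 or 3, and falls dropped to 1 without sham replicate 1 or 2 or irradiated replicate 1 or 3.

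KIF3C (ENSG00000084731, chr2:25926596-25982749, minus strand), a kinesin-2 subunit that pairs with KIF3A, was the only member called higher in both populations in the fit of all 12 libraries; without shTRIM22 sham replicate 3, KIF1C was as well (0.21 on the log2 scale in shTRIM22 cells, adjusted p = 0.00232). It had 43.6, 40.5 and 47.6 CPM in shControl sham and 74.6, 78.9 and 70.9 in shControl irradiated libraries, 46.0, 50.5 and 41.6 in shTRIM22 sham and 81.1, 81.8 and 77.3 in shTRIM22 irradiated libraries. All 6 irradiated values lay above all 6 sham values. The log2 fold changes were 0.77 ± 0.08 (adjusted p = 6.87e-06) and 0.80 ± 0.08 (adjusted p = 4.60e-06), 1.70-fold and 1.74-fold. Of the other kinesin-2 subunits, KIF3A fell in shTRIM22 cells by 0.47 ± 0.09 on the log2 scale (adjusted p = 0.00083), and KIF3B differed by 0.03 ± 0.06 and 0.16 ± 0.06, neither called by edgeR (adjusted p = 0.759 and 0.0617). The second value of KIF3B, whose groups did not overlap, was called higher with upper-quartile scaling (adjusted p = 0.0306), a filter at a mean of 1 CPM (0.0393), mitochondrially encoded genes left out (0.0407) or shTRIM22 sham replicate 3 left out (0.0235).

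KIF13A (ENSG00000137177, chr6:17759183-17987623, minus strand), which positions recycling endosomes, had 120, 121 and 116 CPM in shControl sham and 92.6, 90.4 and 77.5 in shControl irradiated libraries. In the knockdown population it had 108, 106 and 111 before and 91.9, 92.6 and 85.8 after irradiation. It was lower in every irradiated library of both populations, by 0.46 ± 0.07 and 0.27 ± 0.07 on the log2 scale (adjusted p = 0.000202 and 0.00837 by edgeR). The second call was lost without shTRIM22 irradiated replicate 3 (-0.22, adjusted p = 0.0613).

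KIF1A, a neuronal motor of synaptic vesicle precursors described here after its values were seen, had 4.09, 3.20 and 2.70 CPM in shControl sham and 0.778, 2.41 and 1.60 in shControl irradiated libraries. In shTRIM22 cells it had 10.9, 8.88 and 9.78 before and 4.42, 2.77 and 4.12 after irradiation. The sham and irradiated libraries were apart in each population, and the shTRIM22 sham libraries were the highest of all. Irradiation lowered it by 1.04 ± 0.30 on the log2 scale in shControl (adjusted p = 0.0229) and by 1.39 ± 0.24 in shTRIM22 cells (adjusted p = 0.000515). In shControl cells the call was lost without sham replicate 1 (adjusted p = 0.107) or 2 (0.0552) or irradiated replicate 1 (0.101) or 3 (0.0742).

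KIF5B (ENSG00000170759, chr10:32009010-32056431, minus strand), the widely expressed heavy chain of conventional kinesin, was the most abundant member per length, with a mean of 57.5 CPM per kb over all libraries. It made up 31.5% ± 1.2 (SD, n = 3) of the summed transport level in shControl sham, 28.9% ± 1.01 in shControl irradiated, 36.4% ± 1.68 in shTRIM22 sham and 34.0% ± 1.26 in shTRIM22 irradiated cells. Its CPM were 336, 328 and 311 in shControl sham, 302, 287 and 280 in shControl irradiated, 397, 374 and 414 in shTRIM22 sham and 348, 322 and 355 in shTRIM22 irradiated libraries. The 4 groups did not overlap in any of the 4 pairwise comparisons. Irradiation lowered it by 0.21 ± 0.06 on the log2 scale in shTRIM22 cells (adjusted p = 0.0174), a call lost without shTRIM22 irradiated replicate 2 (adjusted p = 0.0958) and in a fit of the compared groups only (0.0823). In shControl cells the log2 difference of -0.17 ± 0.06 had an adjusted p of 0.0717. This value passed the threshold without shTRIM22 sham replicate 3 (0.00436), with upper-quartile scaling (0.0276) and by DESeq2 (0.0442). It also passed with mitochondrially encoded genes left out (0.0457) and in a fit of the compared groups only (0.00114).

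Among the other members tested, 3 were called lower after irradiation in both populations: KIF21B, KIF24 and KIF26A. The share of all genes called lower in both was not computed. Over the 11 tested, 1 rose and 3 fell in shControl cells (median log2 fold change -0.02) and 0 rose (0 also at an unadjusted p below 0.05 and by DESeq2) and 3 fell in shTRIM22 cells (median -0.20). Over all genes, 10.6% rose and 7.53% fell in shControl and 13.5% and 14% in shTRIM22 cells. KIF21B (ENSG00000116852, chr1:200969390-201023700, minus strand), a motor that pauses microtubule growth, had 34.7, 36.9 and 36.3 CPM in shControl sham and 26.2, 27.0 and 26.8 in shControl irradiated libraries. The shTRIM22 libraries had 49.7, 48.4 and 56.9 before and 26.2, 28.4 and 35.1 after irradiation. The irradiated libraries lay below the sham libraries of their own population, with log2 fold changes of -0.43 ± 0.10 (adjusted p = 0.00643) and -0.79 ± 0.10 (adjusted p = 3.08e-05).

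KIF24, a centriole protein that keeps cilia from forming, averaged 5.58 ± 0.841 and 3.30 ± 0.583 CPM in shControl and 4.94 ± 0.989 and 2.14 ± 0.475 in shTRIM22 cells, sham and irradiated (SD, n = 3). Its call in shControl cells (adjusted p = 0.0195) was lost without sham replicate 1 (0.0798) or 2 (0.0736) or irradiated replicate 2 (0.0895) or 3 (0.0765). KIF26A, an atypical member without ATPase activity, averaged 7.07 ± 1.05 and 3.89 ± 0.533 CPM in shControl and 10.8 ± 3.40 and 5.34 ± 0.652 in shTRIM22 cells. Its call in shControl cells (adjusted p = 0.0111) was lost without sham replicate 1 (0.0553) or irradiated replicate 1 (0.0536). KIF2A, a microtubule depolymerase of spindle poles and neurons that was counted here among the mixed roles, differed by -0.02 and 0.04 on the log2 scale and was not called in either population.

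**Figure D3:**
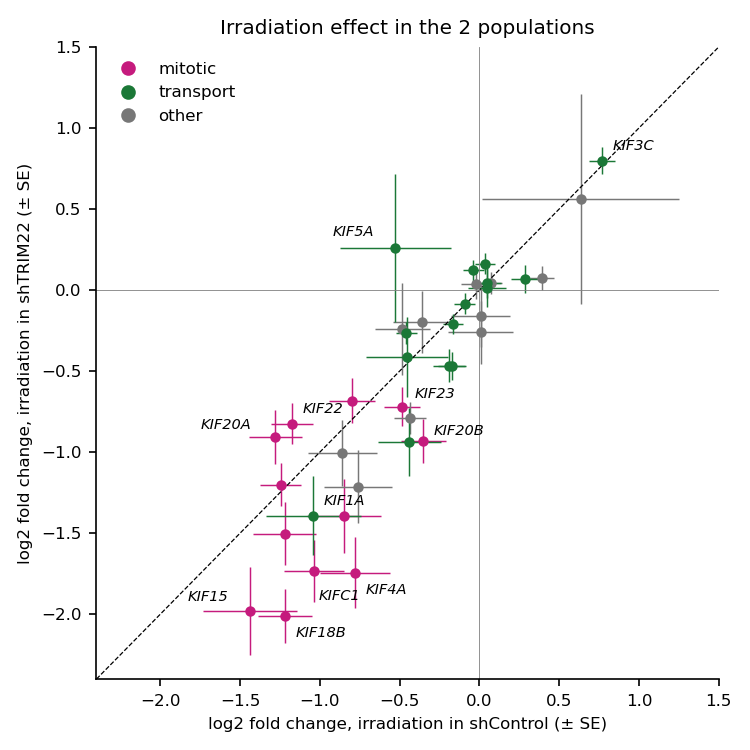
Log2 fold change by irradiation of each of the 38 tested members in shControl cells (x axis) and shTRIM22 cells (y axis), with standard errors; the dashed line marks equal effects, and both axes come from the same fit but from different libraries. Mitotic kinesins (magenta) lie at negative values on both axes, with KIF18B, KIF4A, KIFC1 and KIF20B below the line, and KIF3C lies at 0.77 and 0.80.

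Whether irradiation acted differently in the 2 populations was tested with the interaction term of the same fit, and 0 of the 38 members were called, where 1.61% of all genes were, 1.09% as lower. At an unadjusted p below 0.05 there were 7 of 38 members, 4 of them mitotic, beside 2893 of all genes (16.9%), and DESeq2 called 1 member, KIF4A (adjusted p = 0.0368). The median interaction of the mitotic class was -0.41 on the log2 scale, with 8 of 12 members negative, and that of the transport class was 0.00, beside -0.02 over all genes. The values furthest from 0 in the mitotic class by p were those of KIF18B (-0.80 ± 0.24, adjusted p = 0.105), KIF4A (-0.97 ± 0.31, adjusted p = 0.14), KIF20B (-0.58 ± 0.20, adjusted p = 0.148) and KIFC1 (-0.70 ± 0.27, adjusted p = 0.201 by edgeR). Without shTRIM22 sham replicate 3, KIF18B (-0.72, adjusted p = 0.0397) and KIF20B (-0.64, adjusted p = 0.0173) passed the threshold, and the genes called rose from 276 to 1185. With no filter on low counts, KIF4A (adjusted p = 0.000115), KIF18B (0.0266) and KIF20B (0.0492) were called lower, and 754 genes in all. The interaction of KIF11 was 0.04 ± 0.18 (adjusted p = 0.931). KIF18B, KIF4A and KIF20B were also called higher by knockdown without irradiation (0.54, 0.78 and 0.82 on the log2 scale). The same shTRIM22 sham libraries enter that comparison and the interaction. After irradiation their differences by knockdown (-0.26, -0.19 and 0.24) were not called in the fit of all 12 libraries.

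Knockdown without irradiation raised some mitotic kinesins and lowered 1. Of the 12 tested, 4 rose (KIF20B, KIF4A, KIF18B and KIF15) and KIF23 fell, with a median log2 fold change of 0.28 beside 0.02 over all genes, of which 47.5% were called, 25.4% as higher and 22.1% as lower. The share of mitotic kinesins called is thus no larger than that of all genes, and the libraries did not overlap for 7 of the 12, beside 53% of all genes. KIF20B, whose library values are given above, rose by 0.82 ± 0.14 on the log2 scale (adjusted p = 0.0001), with every shTRIM22 sham library above every shControl sham library. KIF4A rose by 0.78 ± 0.20 (adjusted p = 0.00704), and by 0.51 without shTRIM22 sham replicate 3 (adjusted p = 0.00504). KIF18B rose by 0.54 ± 0.15 (adjusted p = 0.00737) and KIF15 by 0.80 ± 0.25 (adjusted p = 0.0141), the latter not called without shControl sham replicate 3 (adjusted p = 0.0634).

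After irradiation the populations differed in 2 of the 12 mitotic kinesins, where 35.6% of all genes were called, 17.6% as higher and 18% as lower. KIF22 was higher in shTRIM22 cells by 0.57 ± 0.13 on the log2 scale (adjusted p = 0.00266), and KIF23 was lower by 0.73 ± 0.12 (adjusted p = 0.000145). KIF23 was the only mitotic kinesin lower by knockdown in both states, having fallen by 0.50 ± 0.11 without irradiation (adjusted p = 0.00177). The median over the class was -0.04, and the libraries did not overlap for 3 of the 12, beside 53.7% of all genes. The count of rises went from 1 to 2 without shControl irradiated replicate 1 or 2 or shTRIM22 sham replicate 3.

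Cell markers moved with the knockdown too. The epithelial markers summed to 4170 to 4480 CPM in shControl sham and 6450 to 8340 in shTRIM22 sham libraries, and to 5940 to 6370 and 6880 to 7430 after irradiation. Of the 5, KRT8, KRT18 and EPCAM rose and CDH1 fell by 2.28 on the log2 scale without irradiation, and KRT18 rose and CDH1 fell by 1.98 after it. The 4 antioxidant genes typical of A549 summed to 7930 to 8250 CPM in shControl sham and 5710 to 6630 in shTRIM22 sham libraries, and to 9480 to 9840 and 6800 to 7020 after irradiation. AKR1B10, AKR1C1 and ALDH1A1 were called lower by knockdown in both states. NQO1 went the other way, by 0.26 on the log2 scale without irradiation (adjusted p = 0.000881 by edgeR) and 0.11, not called, after it (0.123). The 3 endothelial markers summed to 3.84 to 4.33 and 4.5 to 4.86 CPM without irradiation and 4.36 to 4.49 and 8.49 to 12.0 after it, with CDH5 higher by 3.87 and 3.19 on the log2 scale. PECAM1 differed by -0.35 without and 0.41 after irradiation, neither called (adjusted p = 0.1475 and 0.1003 by edgeR). The part of these shifts in the differences of the kinesins by knockdown was not tested.

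Transport kinesins were called in both directions by knockdown, as were all genes. Without irradiation 3 of 15 rose and 4 fell (median log2 fold change 0.05), and after irradiation 4 rose and 5 fell (median -0.17). Of all genes, 25.4% rose and 22.1% fell without irradiation, and 17.6% and 18% after it, 47.5% and 35.6% in either direction. The share of the class called without irradiation is thus about that of all genes. The libraries of the populations did not overlap for 9 and 12 of the 15, beside 53% and 53.7% of all genes. KIF1A, KIF1C and KIF5B rose and KIF1B, KIF3B, KIF5A and KIFC2 fell in both states, and KIF16B, a motor of early endosomes, rose and KIF5C fell in irradiated cells. The fall of KIF5C (0.67 ± 0.22 on the log2 scale, adjusted p = 0.0227) was lost without shControl irradiated replicate 3 (-0.61, adjusted p = 0.078) or shTRIM22 irradiated replicate 3 (-0.41, adjusted p = 0.119). The falls of KIF1B were lost in 3 of 20 alternatives without and 12 of 20 after irradiation (highest adjusted p = 0.0966 and 0.211), and those of KIFC2 in 5 and 4 of 20 (highest 0.163 and 0.114). The falls ran from 2 to 7 without and from 1 to 7 after irradiation as each library was left out, 7 being reached without shTRIM22 sham replicate 3 in both. Without irradiation 2 falls were left without shControl sham replicate 3 or shTRIM22 sham replicate 1. After it, 2 were left without shControl irradiated replicate 2 or 3 or shTRIM22 irradiated replicate 1, and 1 without shTRIM22 irradiated replicate 3.

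KIF3B (ENSG00000101350, chr20:32277664-32335011), a kinesin-2 subunit of ciliary transport, had 106, 99.4 and 98.5 CPM in shControl sham and 69.1, 66.4 and 69.8 in shTRIM22 sham libraries. After irradiation it had 102, 106 and 103 in shControl and 81.5, 72.8 and 75.7 in shTRIM22 libraries. All 6 knockdown libraries lay below all 6 control libraries, and KIF3B fell by 0.56 ± 0.06 without irradiation (adjusted p = 1.47e-06) and by 0.44 ± 0.06 after it (adjusted p = 3.87e-05).

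KIF1C (ENSG00000129250, chr17:4997948-5028401), a motor of dense-core vesicles and integrins, had 129, 140 and 134 CPM in shControl sham and 171, 163 and 218 in shTRIM22 sham libraries. After irradiation it had 156, 172 and 164 in shControl and 184, 194 and 199 in shTRIM22 libraries. The shTRIM22 libraries were the higher ones in each state. It rose by 0.45 ± 0.09 on the log2 scale without irradiation (adjusted p = 0.000507), and by 0.31 without shTRIM22 sham replicate 3 (adjusted p = 3.43e-06). The rise of 0.23 ± 0.09 after irradiation (adjusted p = 0.0498) was lost in 10 of 20 alternatives, DESeq2 among them (adjusted p = 0.0536), and when any 1 of the shControl libraries or the shTRIM22 irradiated libraries was left out (adjusted p = 0.0638 to 0.169). Irradiation raised KIF1C in shControl cells by 0.29 ± 0.09 (adjusted p = 0.0319), a call lost without any 1 of sham replicates 1, 2 and 3 or irradiated replicates 2 and 3 (adjusted p = 0.0573 to 0.128).

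KIF5B rose by 0.28 ± 0.06 on the log2 scale by knockdown without irradiation (adjusted p = 0.00114) and by 0.24 ± 0.06 after it (adjusted p = 0.00569 by edgeR). Its neuronal relative KIF5A, described after its values were seen, had 2.77, 3.01 and 3.71 CPM in shControl sham and 0.815, 0.365 and 1.11 in shTRIM22 sham libraries. After irradiation it had 1.98, 2.54 and 2.07 in shControl and 0.91, 1.51 and 0.322 in shTRIM22 libraries. The knockdown libraries were lower in both states, by 2.03 ± 0.39 (adjusted p = 0.000442) and 1.25 ± 0.40 (adjusted p = 0.0228), and the second call was lost without shControl irradiated replicate 2 (0.0784) or shTRIM22 irradiated replicate 1 (0.0626) or 3 (0.104). KIF1A, by contrast, rose by 1.57 ± 0.24 without irradiation (adjusted p = 6.07e-05) and by 1.22 ± 0.30 after it (adjusted p = 0.00411), the largest rises by knockdown among the 38 members.

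KIFC3 (ENSG00000140859, chr16:57758217-57863053, minus strand), described after its values were seen, is a minus-end motor of apical transport and cell junctions. It was the most abundant member per length after KIF5B and had 331, 313 and 324 CPM in shControl sham and 299, 288 and 415 in shTRIM22 sham libraries. The value of 415 came from shTRIM22 sham replicate 3, and the other two lay below the control libraries. Knockdown without irradiation differed by 0.05 ± 0.10 on the log2 scale (adjusted p = 0.704), and by -0.13 without that library (adjusted p = 0.0172). After irradiation KIFC3 had 282, 283 and 282 CPM in shControl and 238, 246 and 242 in shTRIM22 libraries, which do not overlap, a difference of -0.22 ± 0.10 that was not called in the fit of all 12 libraries (adjusted p = 0.102) and was called without shTRIM22 sham replicate 3 (adjusted p = 2.83e-05). Irradiation lowered it in shTRIM22 cells by 0.47 ± 0.10 (adjusted p = 0.00323), and by 0.28 without that library (adjusted p = 7.11e-06). In shControl cells the groups did not overlap, and the difference of -0.19 ± 0.10 was not called (adjusted p = 0.216 by edgeR). It was called without shTRIM22 sham replicate 3 (0.00039), with no filter on low counts (0.0269) and with the compared groups only (0.000156). The interaction of KIFC3 was not called (adjusted p = 0.343 by edgeR).

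**Figure D4:**
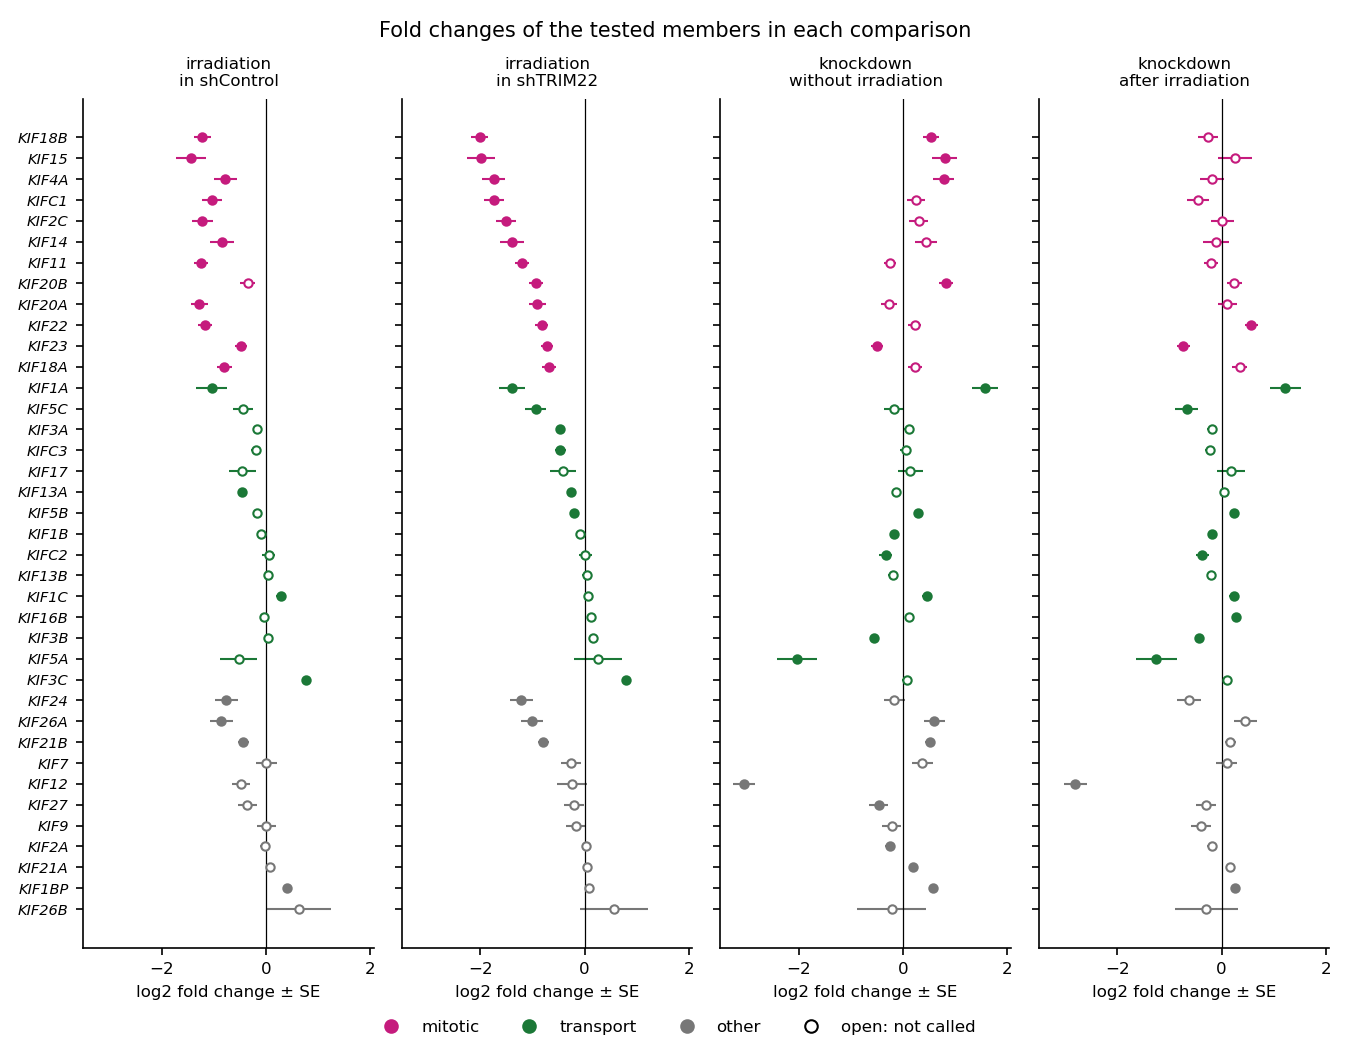
Log2 fold changes with standard errors of the 38 tested members in the 4 pairwise comparisons, grouped by class and ordered within a class by the change after irradiation in shTRIM22 cells; filled points were called at an adjusted p below 0.05. The mitotic members lie left of 0 in both irradiation columns and on either side of 0 in the knockdown columns, where KIF12 is furthest to the left, at -3.04 and -2.80.

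KIF12 (ENSG00000136883, chr9:114086126-114099291, minus strand), a motor of kidney and liver epithelia named here after its values were seen, had the largest change of any member. It had 8.24, 8.21 and 8.89 CPM in shControl sham and 1.14, 0.973 and 0.937 in shTRIM22 sham libraries. After irradiation it had 6.01, 5.86 and 6.27 in shControl and 0.845, 1.2 and 0.515 in shTRIM22 libraries. All 6 knockdown libraries lay far below all 6 control libraries, with log2 fold changes of -3.04 ± 0.21 (adjusted p = 7.15e-09) and -2.80 ± 0.23 (adjusted p = 7.41e-08), 8.23-fold and 6.97-fold lower. KIF12 kept its call in all 20 alternatives of each comparison, its highest adjusted p being 1.25e-05 without and 2.18e-06 after irradiation.

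KIF1BP (ENSG00000198954, chr10:68988721-69043544; KIFBP in RefSeq), which binds kinesin motor domains and keeps them off microtubules, was the most abundant of the other members per length, with a mean of 10 CPM per kb. It had 39.3, 41.2 and 41.7 CPM in shControl sham, 53.8, 55 and 52.0 in shControl irradiated, 59.3, 55.9 and 66.6 in shTRIM22 sham and 66.2, 64.8 and 60.7 in shTRIM22 irradiated libraries. The shControl sham libraries were the lowest, and the 2 shTRIM22 groups overlapped. Irradiation raised it in shControl cells by 0.39 ± 0.08 on the log2 scale (adjusted p = 0.00151), and the difference in shTRIM22 cells was 0.08 ± 0.07 (adjusted p = 0.469). The interaction of -0.32 ± 0.11 was not called (adjusted p = 0.141), though it was without shTRIM22 sham replicate 2 (adjusted p = 0.0489). Knockdown raised it by 0.57 ± 0.07 without irradiation (adjusted p = 1.02e-05) and by 0.25 ± 0.07 after it (adjusted p = 0.0129), the latter not called without shControl irradiated replicate 3 (0.0572) or shTRIM22 irradiated replicate 1 (0.0564).

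Among the 11 other members tested, 4 rose and 3 fell by knockdown without irradiation, and 1 rose and 1 fell after it, where 25.4% and 22.1% of all genes were called higher and lower without irradiation and 17.6% and 18% after it. The 4 were KIF1BP, KIF21B, KIF26A and KIF21A, and the 3 were KIF12, KIF2A and KIF27. KIF26A lost its call in 3 of 20 alternatives: without shControl sham replicate 2 (adjusted p = 0.0875) or shTRIM22 sham replicate 3 (0.115), and with the compared groups only (0.0704). KIF21A lost its call in 6 of 20. These were the fits without shControl sham replicate 2 (0.0559) or 3 (0.133) or shTRIM22 sham replicate 1 (0.123). The others were upper-quartile scaling (0.0902), no filter on low counts (0.135) and the compared groups only (0.107). KIF2A and KIF27 each lost the call in 9 of 20 alternatives (highest adjusted p = 0.15 and 0.178). KIF21B rose by 0.52 ± 0.10 on the log2 scale without irradiation (adjusted p = 0.000355), with all 3 knockdown libraries above the control libraries. KIF13B, KIF17, KIF7, KIF9 and KIF26B were called in none of the 5 comparisons in the fit of all 12 libraries. Without shTRIM22 sham replicate 3, KIF13B was called lower by knockdown without and after irradiation (adjusted p = 6.27e-05 and 0.00529) and higher after irradiation in shTRIM22 cells (adjusted p = 0.0443). KIF7, which acts in Hedgehog signalling at the tip of the cilium, stayed between 3.25 and 6.91 CPM in all 12 libraries.

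**Figure D5:**
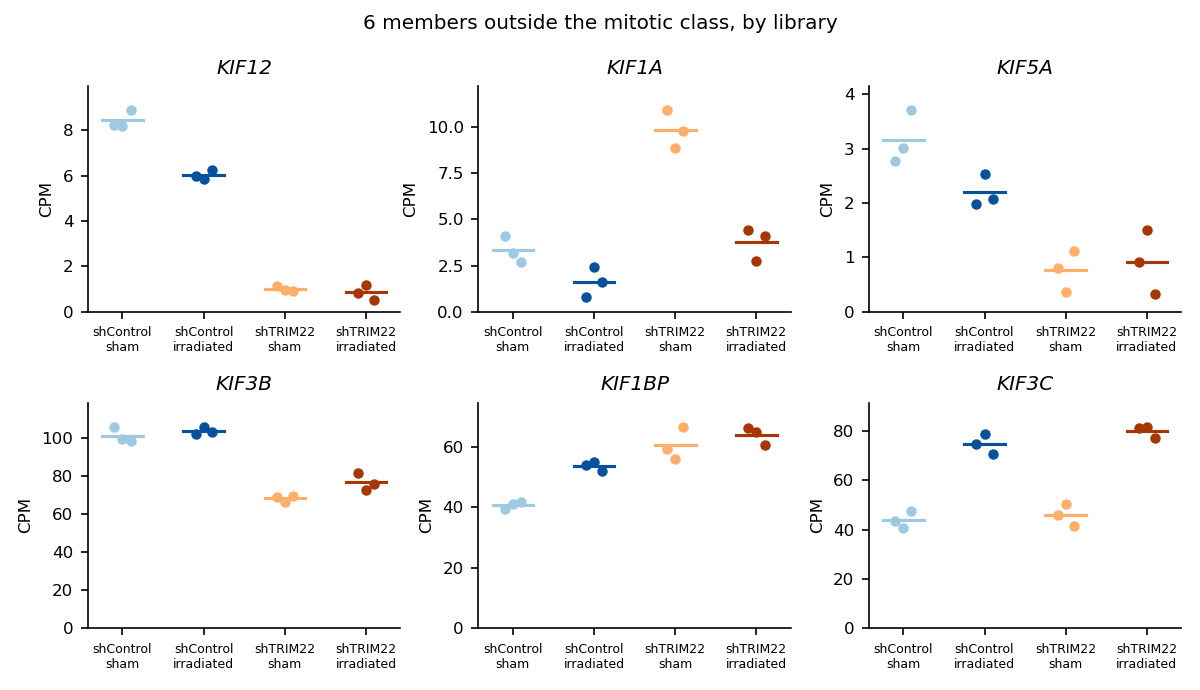
CPM of KIF12, KIF1A, KIF5A, KIF3B, KIF1BP and KIF3C in each library of the 4 groups; points are libraries, horizontal lines are means of 3 libraries, and each panel has its own axis from 0. KIF12 and KIF3B are lower in both shTRIM22 groups, and KIF3C is higher in both irradiated groups.

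Genes that work with the mitotic kinesins moved in the same direction after irradiation. Of 16 listed partners, 11 fell in shControl and 14 in shTRIM22 cells and 0 rose in either (0 also at an unadjusted p below 0.05 and by DESeq2), with median log2 fold changes of -0.73 and -0.95, where 7.53% and 14% of all genes were called lower. CENPE, the kinetochore kinesin that the name rule leaves out, averaged 14.3 ± 3.70 and 5.53 ± 1.31 CPM in shControl and 16.3 ± 1.14 and 6.67 ± 0.962 in shTRIM22 cells, sham and irradiated (SD, n = 3). It fell by 1.36 ± 0.20 and 1.29 ± 0.19 on the log2 scale (adjusted p = 0.000142 and 0.000131 by edgeR). AURKB, the kinase of the chromosomal passenger complex, fell by 0.94 ± 0.16 and 1.49 ± 0.16 (adjusted p = 0.000574 and 6.97e-06 by edgeR), and RACGAP1, which joins KIF23 in centralspindlin, by 0.71 ± 0.13 and 0.87 ± 0.13 (adjusted p = 0.00108 and 0.000167). By knockdown 4 partners rose and 1 fell without irradiation, and 1 fell and 0 rose after it (1 at an unadjusted p below 0.05, 0 by DESeq2), smaller shares than the 47.5% and 35.6% called among all genes.

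Cargo adaptors and light chains of transport kinesins showed no common direction after irradiation: 3 of 16 rose and 2 fell in shControl cells, and 3 rose and 1 fell in shTRIM22 cells, with medians of 0.17 and -0.07, beside 18.2% and 27.5% of all genes called. MAPK8IP3, an adaptor between kinesin-1 and JNK kinases, rose in both, by 0.38 ± 0.09 and 0.37 ± 0.09 on the log2 scale (adjusted p = 0.00618 and 0.00671 by edgeR), and was lower by knockdown in both states, by 0.58 ± 0.09 and 0.60 ± 0.09. Knockdown raised 7 and lowered 3 adaptors without irradiation, and raised 5 and lowered 3 after it, beside 47.5% and 35.6% of all genes called. KLC1 and KLC2, light chains of kinesin-1, rose without irradiation, by 0.52 ± 0.12 (adjusted p = 0.00194) and 0.23 ± 0.06 (adjusted p = 0.00485), whereas KLC4 fell by 0.49 ± 0.14 (adjusted p = 0.00925). KIFAP3, which links KIF3A and KIF3B to cargo, rose by 0.43 ± 0.09 without irradiation (adjusted p = 0.00091); its difference of 0.24 ± 0.09 after irradiation was not called (adjusted p = 0.0551), whereas KIF3B fell in both states.

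Dynein and dynactin, the motor complex that runs in the other direction along microtubules, had 0 of 12 tested subunits called after irradiation in shControl cells by edgeR (3 at an unadjusted p below 0.05, 0 by DESeq2) and 2 lower in shTRIM22 cells, with medians of 0.07 and 0.00. The 2 were DYNLL2 (-0.49 ± 0.08, adjusted p = 0.000296) and DYNC1LI1 (-0.27 ± 0.07, adjusted p = 0.00767). Among all genes tested, irradiation called 18.2% in shControl cells (7.53% as lower) and 27.5% in shTRIM22 cells (14% as lower). By knockdown 5 subunits rose and 3 fell without irradiation, and 1 rose and 3 fell after it, beside 47.5% and 35.6% of all genes called.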

How the data were processed

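Raw, unnormalized read counts for 58735 genes were deposited by the authors in a single table. The submitters' processing notes list hg38 and DESeq2 1.20.0 but no role for them. Which aligner and counter were used, and how strand was handled, is not given in the sources used here, so reads of overlapping genes cannot be told apart. IDs and coordinates of all 43 members equal those of GENCODE release 29. Columns were matched to samples by the sample descriptions, and 0 other per-sample columns were present.

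Tests on the deposited counts used edgeR 4.0.16 (R 4.3.3). The filter was filterByExpr by group with a minimum count of 10, and the 17094 genes it left were scaled by TMM and fitted in 1 quasi-likelihood model over the 12 libraries with robust dispersions; p-values were adjusted by Benjamini-Hochberg over all genes tested. Each standard error (SE) is the absolute log2 fold change divided by the square root of F. CPM were computed from the counts with TMM scaling, and CPM per kb with the deposited gene length. Total counts of 14468386 to 17872154 per library, and a common biological coefficient of variation of 9.7%, set the precision. The 5 comparisons were irradiation in each population, knockdown in each state, and their interaction. The steps were also run on simulated counts in which only a small set of genes changed and no library stood apart. That run therefore does not cover the conditions of these data. Alternatives were other scalings, DESeq2 1.42.0, other filters, mitochondrially encoded genes left out, the compared groups alone, the replicate number as a block, each library left out and another class assignment.

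Members, classes and lists were chosen with earlier results of these data known. Values of every library are printed for the 16 members with the smallest adjusted p among 26 that were called and averaged 5 CPM or more, and for the most abundant of each class; KIF1A, KIF5A, KIF12 and KIFC3 were added after their values were seen. Promoters come from RefSeq, where KIF5A, KIF13B, KIF19, KIF21B, KIF26B, KIF27, KIFC2 and KIFC3 had no entry. One marker is not reported here.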

Additional observations from a re-analysis of the deposited data

How the results depend on the processing

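Of 73 calls of a member in a comparison, 52 held in every alternative run, 21 were lost in at least 1 and 0 changed direction. The median log2 fold change of all genes moved by at most 0.054 in any of them. Transport kinesins higher after irradiation in shTRIM22 cells numbered 2 with upper-quartile scaling, with a filter at a mean of 1 CPM or without mitochondrially encoded genes. With no filter, 754 genes were called for the interaction, with DESeq2 597, and mitotic kinesins lower numbered 3 and 1. Mitotic kinesins lower by knockdown without irradiation numbered 2 with no filter, and 2 with KIF2A and KIF24 counted as mitotic, under which transport kinesins higher numbered 5 with KIF21A and KIF21B counted as transport. With the compared groups only, 5224 genes and 4 transport kinesins (lower) were called for irradiation in shControl and 2912 genes in shTRIM22 cells. The causes of these moves were not tested, other than the counting of members that defines the last assignment.

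As each library was left out, genes called ran from 111 to 1185 for the interaction and from 2135 to 5260 for irradiation in shControl, both highest without shTRIM22 sham replicate 3. Mitotic kinesins lower ran from 0 to 2 for the interaction and from 1 to 2 for knockdown without irradiation, and higher from 1 to 2 for knockdown after irradiation. Transport kinesins higher ran from 1 to 2 and lower from 1 to 4 for irradiation in shControl, higher from 1 to 4 for irradiation in shTRIM22, and lower from 2 to 7 and from 1 to 7 for knockdown without and after irradiation.

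Libraries with the same replicate number deviated together weakly or not at all. The correlation of their deviations from the group means was -0.0545 to 0.0942 in the 4 comparisons, with 0 of the pairs over 0.1. For irradiation in shControl (0.0137 to 0.0437) and knockdown without irradiation (0.0293 to 0.0942), all 6 libraries correlated best with their own number. In the other comparisons 2 of 6 did. With the replicate block, 76 of 77 calls of members and TRIM22 held, 229 genes were called for the interaction, and KIF27 lost its call by knockdown without irradiation (adjusted p = 0.0512).

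Depth limits the members with the fewest counts, KIF2B, KIF4B, KIF6, KIF19 and KIF25, which were not tested, and KIF26B, whose standard error reached 0.67 in the pairwise comparisons on the log2 scale. Some members share exon bases with other genes, and how such reads were counted is not known here: 11.8% of the exon bases of KIF7 lie in TICRR (2275 counts over all libraries, against 914 for KIF7), 2.33% of KIF24 in UBAP1 (19091 against 785), 3.34% of KIF20A in BRD8 and 1.72% in CDC23 (8137 and 8739 against 1313), 14.9% of KIF9 in KIF9-AS1 (433 against 728), 8.97% of KIF2A in IPO11 (5779 against 8929), 1.7% of KIF4A in PDZD11 (5748 against 3952) and 1.31% of KIF18A in METTL15 (5762 against 2057).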
